A study of Mus musculus with 31 samples.

Results

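The BBSome is a coat-like protein complex that carries membrane proteins into and out of the primary cilium, and the BBS chaperonin genes encode relatives of the cytosolic chaperonin TRiC that help to assemble it. Loss of any of these genes causes Bardet-Biedl syndrome, a ciliopathy. In many epithelial cells the same proteins also sit at the centrosome and at pericentriolar satellites, from which BBS4 takes part in building the cilium. The 10 genes described here were taken by name from the 24594 genes listed in the ribosome profiling and total RNA count tables. They comprised 7 subunits of the BBSome (Bbs1, Bbs2, Bbs4, Bbs5, Bbs7, Bbs9 and Ttc8, which encodes BBS8), the small GTPase Arl6 (BBS3), which recruits the complex to membranes, and 2 chaperonin genes (Bbs10 and Bbs12). Bbs4 had drawn attention through its ribosome-protected fragments (RPFs) after bortezomib in these data. Its values in the comparisons that chose it are therefore given as a description without a test, and the question is whether the other 9 genes moved with it.

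The cells were a mouse skin squamous cell carcinoma line with an oncogenic Hras allele, labelled HRasG12V:TgfbrIIfl/fl, in which the endogenous Eif2s1 gene had been ablated by CRISPR/Cas9. The study itself lists both lines as HRasG12V TgfbrII D/D, with Tgfbr2 deleted, in place of the floxed allele of the labels. eIF2α, the product of Eif2s1, came from a Myc-tagged transgene under the PGK promoter, either with the phosphorylatable serine (genotype HRasG12V:TgfbrIIfl/fl_S51_Myctag, S51) or with alanine in its place (S51A), which cannot be phosphorylated and so cannot start the integrated stress response (ISR). Each line received vehicle (DMSO) or 100 nM bortezomib, an inhibitor of the proteasome, for 4.5 h by the labels, while the methods of the study give 4 h. The lines descended from single sorted cells and the sources used here do not tie a library to a clone, so that genotype and clone cannot be told apart, and p-values measure only the spread between libraries of a group. S51 cells on vehicle had 3 RPF libraries and the remaining groups 4 each, 15 in all, and every group had 4 of the 16 total RNA libraries.

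RPF libraries held 1038826 to 4902237 counted reads and total RNA libraries 18758668 to 22994713. The RPF library of S51 vehicle replicate 2 stood apart from its group, with a chi-square per gene of 13.2 and 18.4 against the other two, where the other 19 pairs of RPF replicates gave 1.66 to 5.01. The members' fitted RPF differences that rest on it are given with and without it where a call changed, and for some of the others. Eif2s1, the targeted gene, was read at 279 to 314 CPM (read counts scaled to library size with TMM factors) of total RNA in every library, which includes the transgene and so does not check the ablation. Its RPFs were 81.2 to 171 CPM in S51 and 213 to 260 CPM in S51A cells on vehicle. On bortezomib they were 148 to 196 CPM in S51 and 190 to 235 CPM in S51A cells. The part of this difference in those between the lines was not tested. All 9 epithelial markers examined were present, with 4785 to 7261 CPM of Krt14. Markers of other cell types lay at or near 0 except the fibroblast marker Pdgfra (2.69 to 6.94 CPM) and the leukocyte marker Csf1r (0.186 to 2.89 CPM), with Cd3e, Col1a2 and Tekt1 at 0 in every total RNA library. The markers of multiciliated cells (Foxj1, Dnah5 and Tekt1) summed to at most 0.189 CPM. The 3 leukocyte markers summed to 0.186 to 0.551 CPM in S51 and 1.34 to 3.003 CPM in S51A libraries, and the part of this difference in those between the lines was not tested.

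The start codon and its surroundings bear on how ribosomes begin on an mRNA, and upstream start codons in the leader bear on how an mRNA responds to the ISR, so the start sites of the genes whose values the results turn on are shown first (RefSeq transcripts on build GRCm38.p6, 5′ to 3′, start codon in capitals). The windows lie at chr9:59353419-59353445 (Bbs4, minus strand), chr8:94098338-94098364 (Bbs2, minus), chr2:69647272-69647298 (Bbs5, plus), chr10:111298711-111298737 (Bbs10, plus) and chr3:37312584-37319074 (Bbs12, plus, across an exon junction).
Bbs4: ggcggagccaagATGgctgaagtgaag
Bbs2: gctggcgccatcATGctgctgcctgtg
Bbs5: ccctcggtcaccATGtctgtgctggac
Bbs10: ggttccttacccATGgcgtcccagggg
Bbs12: tgataattattcATGgagatggcttgc
A purine 3 bases before the start codon, the usual favourable context, was present in 8 of the 10 genes, namely all 7 subunits and Arl6, and absent from both chaperonin genes. Among 9408 genes tested for RPF, 86.8% had it.

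The Bbs4 leader of 75 nucleotides held no upstream ATG, and 3 of the 9 members tested for RPF (Bbs5, Bbs9 and Arl6) held at least 1, against 46.5% of 9425 genes. In Bbs5 the upstream frame was 2 codons long, in Bbs9 1 of 4 frames ran past the start of the coding sequence, and in Arl6 the longer of the frames had 73 codons. The upstream ATG of each is shown in capitals within 24 bases of its leader, at chr2:69647183-69647206 (Bbs5, plus strand), chr9:22475925-22475948 (Bbs9, plus) and chr16:59639335-59639358 (Arl6, minus).
Bbs5: ccgccgtagATGtcgtgacaaagc
Bbs9: ctctgggggATGacaagagggtgc
Arl6: cggctcccaATGcagtggcggctc
None of these 3 genes passed the test for a change in RPFs with bortezomib in either line. Over all genes, 30.8% passed at an adjusted p below 0.05 in S51 and 20.6% in S51A cells. A link between upstream ATGs and the response was not tested.

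Bbs4 (Entrez 102774, chr9:59321966-59353508, minus strand, 16 exons, 520 codons) gave 4.61, 6.77 and 6.47 RPF CPM in the 3 libraries of S51 cells on vehicle and 13.1, 11.5, 13.6 and 17.4 in the 4 on bortezomib. Every bortezomib library lay above every vehicle library. The log2 fold change was 1.24 ± 0.30 (SE), a 2.36-fold higher level, and 167 of the 9457 genes tested had a value as high or higher. Without S51 vehicle replicate 2 it was 1.31 ± 0.33. These values rest on few reads, since Bbs4 had 4 to 36 RPF reads per library, and they come from the contrast in which Bbs4 was noticed.

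Bbs4 mRNA in the same S51 lysates was 8.81, 9.24, 9.82 and 9.67 CPM on vehicle and 10.7, 11.1, 12.8 and 14.4 on bortezomib. Its groups did not overlap either, but the difference was smaller, with a log2 fold change of 0.38 ± 0.11, or 0.23 with library sizes alone. Translational efficiency (TE), the RPF level divided by the total RNA level of the same lysate, was 0.523, 0.733 and 0.659 for Bbs4 on vehicle and 1.23, 1.04, 1.07 and 1.20 on bortezomib. The log2 fold change of TE was 0.87 ± 0.32, from 1 model over both kinds of library.

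**Figure D1:**
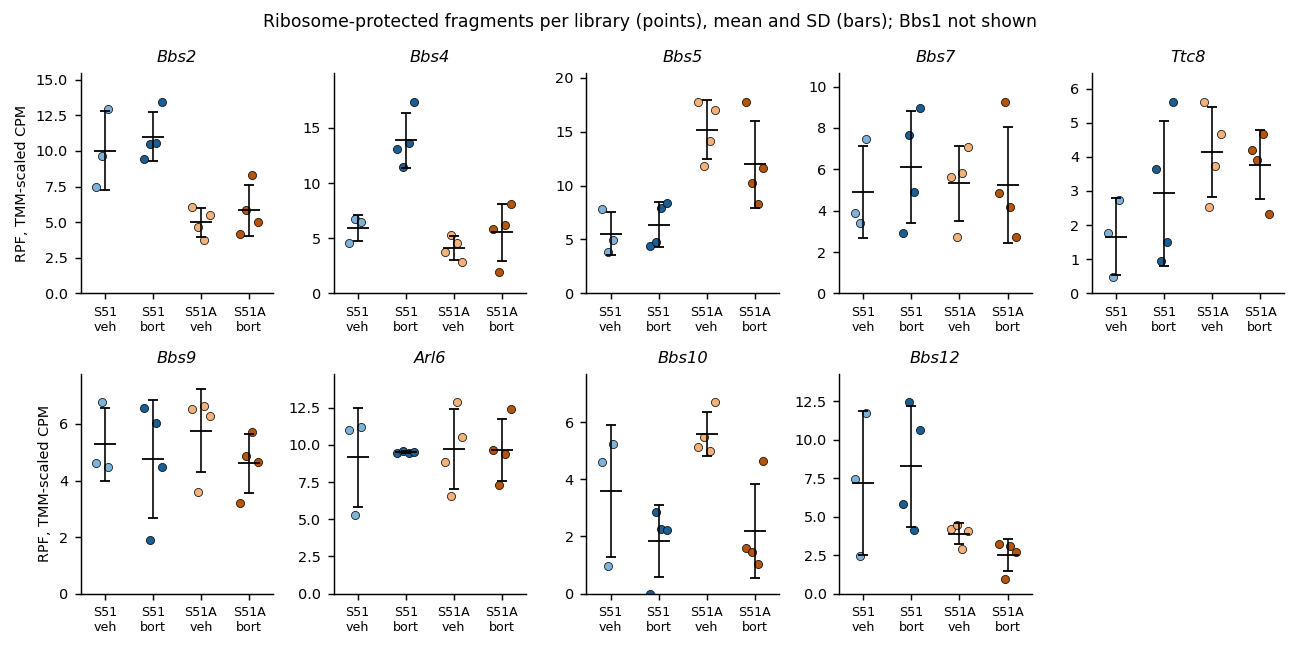
RPF level (TMM-scaled CPM, linear axis from 0) of 9 of the genes in each of the 15 libraries, with 1 point per library and the mean and SD as bars (3 libraries of S51 vehicle, 4 of each other group). Bbs4 shows 11.5 to 17.4 CPM in S51 cells on bortezomib, above all other libraries, while the mean of Bbs5 is higher in S51A than in S51 cells under both treatments.

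Of the 9 members tested for RPF in S51 cells on bortezomib over vehicle, Bbs4 was the only one called (fold change above 1.5 with an adjusted p below 0.05), where 18.6% of all genes tested were called. This contrast chose Bbs4, so that its call is a description. The other 8 ranged from −1.04 ± 0.57 (Bbs10) to 0.63 ± 0.56 (Ttc8), and their median without Bbs4 was 0.05, beside a median of 0.00 over all genes. Without S51 vehicle replicate 2 they ranged from −1.37 ± 0.51 (Bbs10) to 0.33 ± 0.54 (Ttc8), with Bbs9 at 0.16, Bbs5 at 0.14, Bbs2 at 0.08, Bbs7 at 0.02, Arl6 at −0.23 and Bbs12 at −0.37. With all libraries, the upper ends of the 95% intervals of these 8 ran from 0.08 (Bbs10) to 1.73 (Ttc8), with Bbs7 at 1.06 and Bbs5 at 0.96. The difference between Bbs4 and another member was not tested, since Bbs4 had been chosen on its value in this contrast.

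Bbs2, a propeller subunit that binds BBS7 in the core of the complex, was at 7.44, 9.67 and 12.9 RPF CPM on vehicle and 9.46, 10.5, 10.6 and 13.4 on bortezomib in S51 cells. The groups overlapped, with a log2 fold change of 0.11 ± 0.26 (adjusted p = 0.77). Bbs7, its partner, gave 0.19 ± 0.44 in RPFs (adjusted p = 0.77). Its mRNA was 5.89, 6.31, 6.20 and 6.32 CPM on vehicle and 11, 8.77, 8.12 and 8.34 on bortezomib in S51 cells, without overlap. Bbs7 mRNA thus rose by a log2 fold change of 0.55 ± 0.10 (adjusted p = 3.9e-05), under the 2-fold limit for a call.

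Bbs5, the subunit that binds phosphoinositides, had 0.27 ± 0.35 in RPFs (adjusted p = 0.60) and −0.05 ± 0.09 in mRNA (adjusted p = 0.62). Bbs9, the scaffold of the complex, had −0.02 ± 0.36 in RPFs (adjusted p = 0.98) and 0.11 ± 0.10 in mRNA (adjusted p = 0.32). Arl6, at 5.32 to 11.2 RPF CPM on vehicle and 9.46 to 9.57 on bortezomib, had −0.01 ± 0.28 (adjusted p = 0.98) with a 95% interval from −0.56 to 0.54, and its mRNA −0.01 ± 0.07 (adjusted p = 0.88). The RPF intervals of these subunits leave room for changes of up to 0.96 for Bbs5 and 0.69 for Bbs9.

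Ttc8, a subunit built of tetratricopeptide repeats like BBS4, had mRNA that fell while its RPF value lay above 0. Its mRNA was 3.47, 4.08, 3.86 and 4.06 CPM on vehicle and 2.47, 1.40, 2.43 and 3.38 on bortezomib in S51 cells, with every bortezomib library below every vehicle library. It fell by 0.69 ± 0.17 on the log2 scale (adjusted p = 0.0012), under the 2-fold limit. Its RPFs, 1.77, 0.484 and 2.74 CPM on vehicle and 3.64, 0.957, 1.51 and 5.60 on bortezomib, overlapped, and its log2 fold change of TE of 1.31 ± 0.60 did not pass (adjusted p = 0.18), nor did the 1.01 ± 0.59 without S51 vehicle replicate 2. Ttc8 had 1 to 23 RPF reads per library, so that a change in its RPFs of the size of that of Bbs4 was not resolvable at this depth.

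Bbs1, the subunit that binds ARL6, had no RPF reads in 14 of the 15 libraries and 1 read in the other, of 39730466 reads in all, while its mRNA was read at 0.293 to 2.41 CPM with 7 to 55 reads per library. In a single library a count of 0 allows up to 3 reads, which is 0.612 to 2.89 CPM and covers counting error only. Over the 15 libraries pooled, 3 reads come to 0.0755 CPM, and Bbs1 had 1. Why its RPFs were so few was not tested. Bbs1 could not be tested for RPF or TE.

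**Figure D2:**
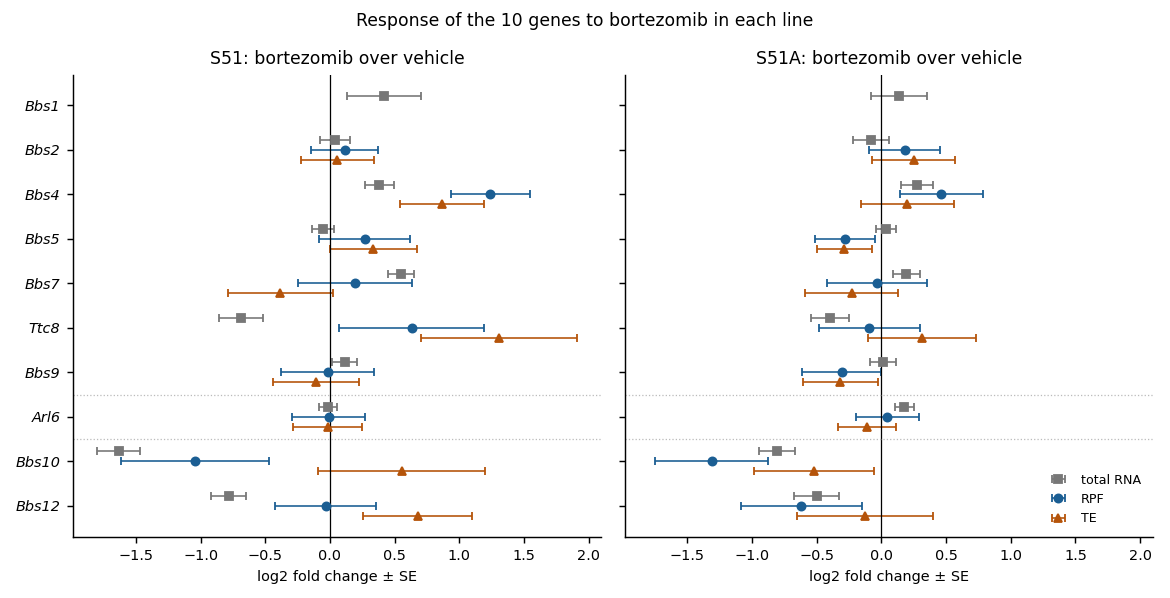
Log2 fold change with its SE (horizontal axis) of total RNA (squares), RPF (circles) and TE (triangles) for each gene on bortezomib over vehicle, in S51 cells (left) and S51A cells (right), with dotted lines setting off Arl6 and the chaperonin genes. Bbs4 has the highest RPF value among the members in both lines, 1.24 and 0.46, and Bbs10 the lowest total RNA value in both, −1.63 and −0.81.

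The chaperonin mRNAs fell with bortezomib. Bbs10 (Entrez 71769, chr10:111298679-111301736, plus strand, 2 exons), which acts with BBS12 and MKKS in assembling the core of the complex around BBS7, had 4.88, 7.10, 5.83 and 6.45 CPM of mRNA in S51 cells on vehicle and 1.51, 1.83, 2.19 and 2.30 on bortezomib. The groups were far apart, a 3.10-fold lower level with a log2 fold change of −1.63 ± 0.17 (adjusted p = 7.7e-09). Bbs10 was the only one of 10 members called for total RNA in this comparison, where 4.99% of all genes tested were called. Its RPFs in the same cells were 4.61, 0.967 and 5.23 CPM on vehicle and 0, 2.87, 2.27 and 2.24 on bortezomib. They overlapped only through S51 vehicle replicate 2, and the change of −1.04 ± 0.57 (adjusted p = 0.18) became −1.37 ± 0.51 (adjusted p = 0.038) without that library, so that Bbs10 was then called beside Bbs4.

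In S51A cells Bbs10 mRNA was 6.43, 6.78, 7.98 and 9.07 CPM on vehicle and 3.32, 4.29, 4.80 and 4.86 on bortezomib, again without overlap. It fell by 0.81 ± 0.14 on the log2 scale (adjusted p = 2.7e-05), under the 2-fold limit. The fall was larger in S51 than in S51A cells by −0.82 ± 0.22 on the log2 scale, a difference that passed at an adjusted p of 0.0096, and it passed at 0.027 or less when any 1 total RNA library was left out. At an adjusted p below 0.05 without a limit on the fold, 21.6% of genes differed in their response between the lines. Past 2-fold, 0 of 10 members were called by edgeR and by DESeq2, where 0.478% of all genes were called. At an unadjusted p below 0.05 there were 2 members (Bbs10 and Bbs7) and 3976 of all 11708 genes.

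Bbs10 RPFs in S51A cells were 5.14, 5.49, 4.98 and 6.69 CPM on vehicle and 1.61, 1.46, 1.04 and 4.64 on bortezomib. All 4 bortezomib libraries were lower than all 4 on vehicle, and replicate 4 lay near the vehicle range. Bbs10 fell by 1.31 ± 0.44 on the log2 scale (adjusted p = 0.036) and was the only member of 9 called in this comparison, where 10.9% of all genes tested were called. The call was lost without S51A vehicle replicate 1, 2 or 4 and without S51A bortezomib replicate 1, 2 or 3, with adjusted p of 0.052 to 0.12 and changes from −1.34 to −1.13. It was −1.98 without S51A bortezomib replicate 4.

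Bbs12 (Entrez 241950, chr3:37312547-37321450, plus strand, 2 exons), its chaperonin partner, had 8.46, 12.3, 12.2 and 11 CPM of mRNA in S51 cells on vehicle and 6.30, 5.49, 6.17 and 7.67 on bortezomib. The groups did not overlap, and Bbs12 mRNA fell by 0.78 ± 0.14 on the log2 scale (adjusted p = 2.3e-05), under the 2-fold limit. In S51A cells it was 3.24, 4.80, 3.81 and 5.61 CPM on vehicle and 2.58, 3.25, 3 and 3.51 on bortezomib, with an overlap, and fell by 0.50 ± 0.17 (adjusted p = 0.017). Its RPFs did not pass in either line, at −0.03 ± 0.39 in S51 cells (adjusted p = 0.96) and −0.62 ± 0.47 in S51A cells (adjusted p = 0.39). In bulk cells, fewer cells that express a gene and less RNA per cell cannot be told apart.

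The promoters of Bbs10 and Bbs12, whose mRNAs fell in both lines, are shown as the 250 bases before the RefSeq start site (GRCm38.p6, chr10:111298429-111298678, plus strand, and chr3:37312304-37312553, plus strand), with matches to the GC box (GGGCGG) and the CCAAT box (CCAAT) on either strand in capitals.
Bbs10: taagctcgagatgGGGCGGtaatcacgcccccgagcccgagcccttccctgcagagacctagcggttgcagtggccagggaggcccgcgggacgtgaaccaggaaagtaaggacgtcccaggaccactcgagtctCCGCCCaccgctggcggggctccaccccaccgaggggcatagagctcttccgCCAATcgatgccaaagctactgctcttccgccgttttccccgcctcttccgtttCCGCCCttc
Bbs12: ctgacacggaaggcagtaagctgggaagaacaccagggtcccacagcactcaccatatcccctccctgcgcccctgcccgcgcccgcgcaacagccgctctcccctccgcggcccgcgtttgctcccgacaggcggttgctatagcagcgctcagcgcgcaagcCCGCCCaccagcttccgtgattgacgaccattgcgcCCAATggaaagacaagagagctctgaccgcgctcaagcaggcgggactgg
Both promoters held both motifs, which occur in 32.7% (GC box) and 33.8% (CCAAT box) of 32851 promoters of this length. Ttc8, whose mRNA also fell in both lines, held neither, and Arl6, whose mRNA fell in neither line, held both. A link between these motifs and the fall was not tested. The exact sequence GTTGCCA, an RFX motif of ciliary genes that occurs in 3.66% of promoters, was in none of the 11 promoters of the members. Looser forms of the RFX motif were not searched. The CARE motif TGATGNAA of ATF4 targets (3.45% of promoters) was in none of them either. With shares this low, absence from 11 promoters says little.

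**Figure D3:**
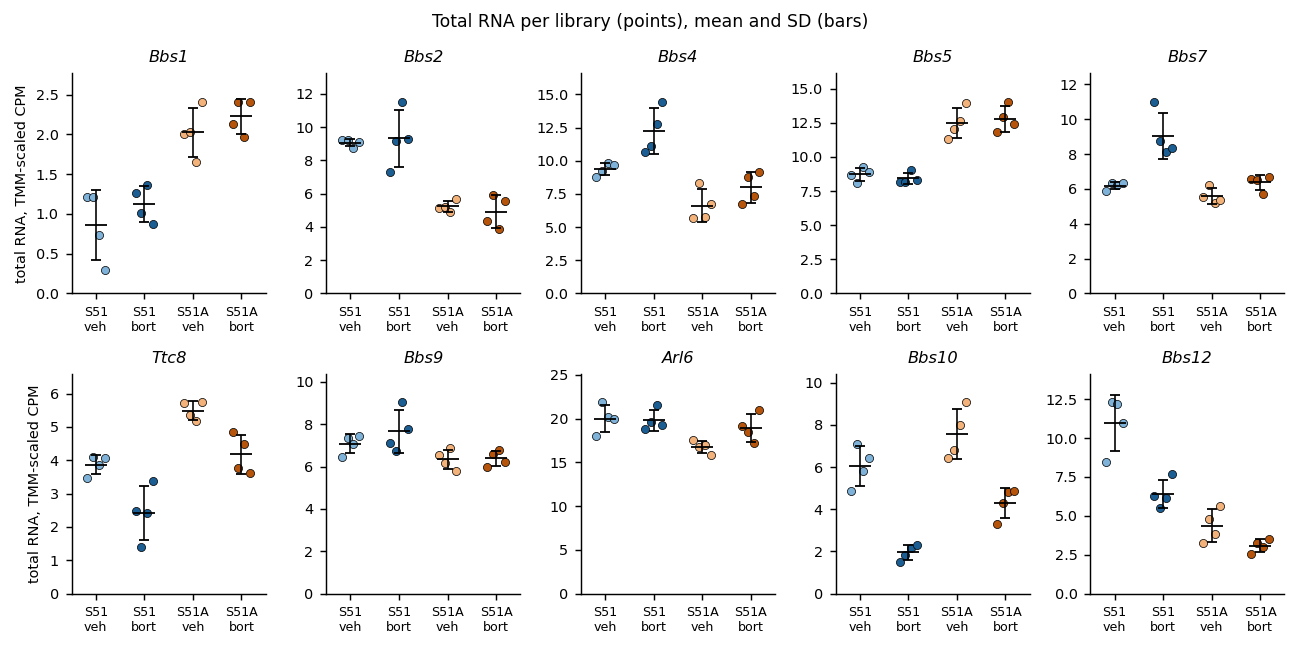
Total RNA level (TMM-scaled CPM, linear axis from 0) of the 10 genes in each of the 16 libraries, with 1 point per library and the mean and SD of 4 libraries as bars. Bbs10 falls from 4.88 to 7.10 CPM on vehicle to 1.51 to 2.30 CPM on bortezomib in S51 cells, and Bbs12 and Bbs2 are higher in S51 than in S51A cells under each treatment.

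In S51A cells no member other than Bbs10 was called for RPFs on bortezomib, but wide intervals leave room for changes. The interval of the RPF log2 fold change ran from −0.17 to 1.09 for Bbs4 and from −1.54 to 0.30 for Bbs12. Bbs4 had 3.74, 5.28, 4.57 and 2.84 RPF CPM on vehicle and 5.80, 1.95, 6.24 and 8.12 on bortezomib, and the groups overlapped through bortezomib replicate 2. Its log2 fold change was 0.46 ± 0.32 in RPFs (adjusted p = 0.34), 0.28 ± 0.13 in mRNA (adjusted p = 0.068) and 0.20 ± 0.36 in TE (adjusted p = 1.00). Total RNA called 0 of 10 members in S51A cells by edgeR and by DESeq2, where 4.18% of all genes were called. At an unadjusted p below 0.05 there were 5 members and 7051 of all 11708 genes. Besides the chaperonin genes, Ttc8 mRNA fell by 0.40 ± 0.15 (adjusted p = 0.023). Arl6 mRNA differed by 0.18 ± 0.07 (adjusted p = 0.039), where scaling by library sizes alone moved the median of all genes by −0.13.

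The response of Bbs4 was larger in S51 than in S51A cells by 0.78 ± 0.45 in RPFs and by 0.67 ± 0.48 in TE on the log2 scale, with 95% intervals from −0.10 to 1.65 and from −0.28 to 1.62. For the other 8 members the difference in RPF response ran from −0.07 ± 0.37 (Bbs2) to 0.73 ± 0.68 (Ttc8). Without S51 vehicle replicate 2 it was 0.84 ± 0.46 for Bbs4 and ran from −0.28 ± 0.36 (Arl6) to 0.47 ± 0.50 (Bbs9) for the others, with Ttc8 at 0.42, Bbs5 at 0.40, Bbs12 at 0.26, Bbs7 at 0.06, Bbs10 at −0.05 and Bbs2 at −0.10. No member of 9 was called for this difference in RPFs by edgeR or DESeq2, where 1.86% of all genes were called. At an unadjusted p below 0.05 there were 0 members and 1522 of all 9457 genes. In TE the difference for the other 8 members ran from −0.19 ± 0.43 (Bbs2) to 1.08 ± 0.80 (Bbs10). Ttc8 (0.99 ± 0.73) and Bbs12 (0.81 ± 0.67) also lay above the 0.67 of Bbs4. Without S51 vehicle replicate 2 only Bbs10 did, at 0.77 ± 0.74 against 0.73 ± 0.50 for Bbs4. The RPF sum of the other 8 tested members per library was 32.9 to 60.7 CPM in S51 cells on vehicle and 42.2 to 63.3 on bortezomib, and 41.8 to 61.9 and 43.9 to 48.7 in S51A cells. These sums overlapped between all groups, but a sum can hide opposite moves of its genes. Bbs4 in S51 cells on bortezomib lay above every other library, which is a description, since Bbs4 had been chosen on these values.

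**Figure D4:**
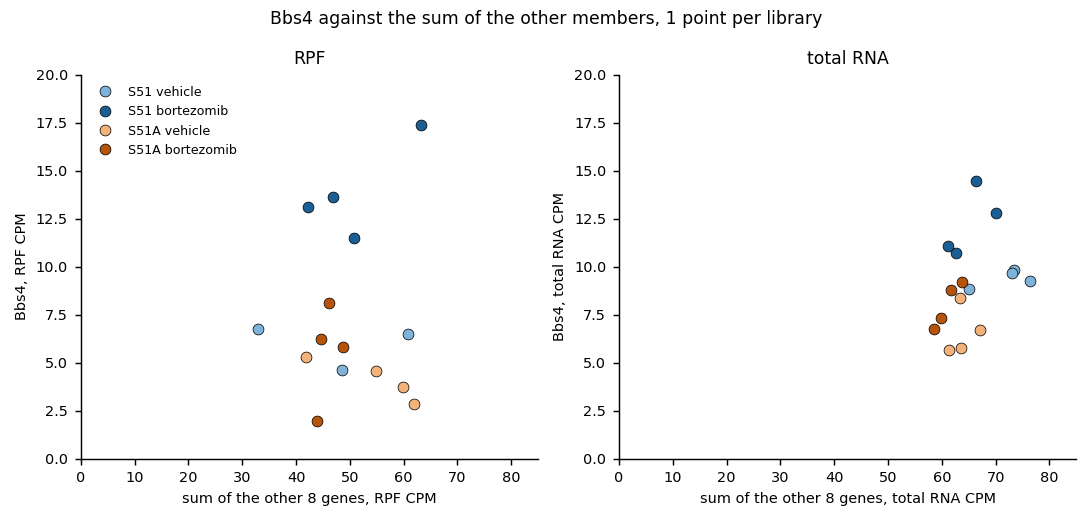
Bbs4 level (vertical axis, CPM) against the summed level of the other 8 genes (horizontal axis, CPM; Bbs1 left out) in each RPF library (left) and total RNA library (right), coloured by group. In RPF the 4 libraries of S51 cells on bortezomib lie at 11.5 CPM of Bbs4 or above while their sums, 42.2 to 63.3 CPM, overlap those of the other groups. Bbs4 had been chosen for its RPFs in these libraries.

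Several members differed between the lines irrespective of bortezomib. Bbs2 RPFs were 6.07, 4.65, 3.74 and 5.48 CPM in S51A cells on vehicle, all below the 7.44 to 12.9 CPM of S51 cells. Bbs2 was higher in S51 cells by 1.03 ± 0.26 on the log2 scale (adjusted p = 0.0046), by 1.07 ± 0.29 without S51 vehicle replicate 2, and by 0.79 without replicate 3, when the call was lost. On bortezomib it was higher by 0.97 ± 0.27 (adjusted p = 0.0096), and its mRNA by 0.79 ± 0.12 on vehicle (adjusted p = 5.4e-06) and 0.91 ± 0.13 on bortezomib (adjusted p = 8.8e-07).

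Bbs5 was lower in S51 cells. Its RPFs were 7.79, 3.87 and 4.98 CPM in S51 and 17.8, 11.8, 14.1 and 17.0 in S51A cells on vehicle, without overlap, a log2 fold change of −1.41 ± 0.28 (adjusted p = 0.00078), or −1.27 ± 0.29 without S51 vehicle replicate 2. The mRNA differed by less, at 8.12 to 9.27 CPM in S51 and 11.3 to 14 in S51A cells, with −0.52 ± 0.08 (adjusted p = 5.8e-06). The TE difference of −0.90 ± 0.26 did not pass over all genes (adjusted p = 0.17). On bortezomib Bbs5 RPFs were lower in S51 cells, at −0.86 ± 0.30 (adjusted p = 0.032), a call that was lost without S51 bortezomib replicate 1 or 2 or S51A bortezomib replicate 1, the last of which gave −0.58.

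On vehicle, Bbs2 and Bbs5 were the 2 of 9 members called for RPF, where 15.8% of all genes tested were called. Bbs12 RPFs differed by 0.97 ± 0.39 (adjusted p = 0.065) and passed without S51 vehicle replicate 2, at 1.29 ± 0.33 (adjusted p = 0.0026). Ttc8 gave −1.07 ± 0.47 (adjusted p = 0.092), or −0.76 ± 0.46 (adjusted p = 0.22) without that library, and Bbs4 0.53 ± 0.33 (adjusted p = 0.24), with its mRNA higher in S51 cells by 0.50 ± 0.12 (adjusted p = 0.00097). On bortezomib 4 of 9 were called for RPF (Bbs12, Bbs4 and Bbs2 higher, Bbs5 lower), where 17.7% of all genes were called. The call of Bbs4 is again a description, since it had been chosen on this contrast. Bbs12 RPFs were 5.82, 12.4, 4.16 and 10.6 CPM in S51 and 3.22, 0.975, 3.12 and 2.71 in S51A cells on bortezomib, without overlap, with 1.55 ± 0.47 (adjusted p = 0.015) and no call without S51 bortezomib replicate 4, at 1.33. Bbs4 there was 1.31 ± 0.29 in RPFs, 0.61 ± 0.12 in mRNA and 0.71 ± 0.32 in TE.

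In total RNA on vehicle, Bbs12 (8.46 to 12.3 CPM in S51 and 3.24 to 5.61 in S51A cells) was higher in S51 cells by 1.33 ± 0.14 (adjusted p = 1.6e-08). Bbs1, with 1.21, 1.21, 0.734 and 0.293 CPM in S51 and 2.01, 2.03, 1.66 and 2.41 in S51A cells, was lower in S51 cells at −1.27 ± 0.25 (adjusted p = 0.00013), and at −0.96 no longer called without S51 vehicle replicate 4. These were the 2 of 10 members called, where 7.87% of all genes were called. At an adjusted p below 0.05 without a limit on the fold, 8 of 10 differed between the lines, 4 in each direction, as did 63.8% of all genes. On bortezomib Bbs12 (1.05 ± 0.17, adjusted p = 5.8e-06) and Bbs10 (−1.14 ± 0.18, adjusted p = 4.8e-06) were called, where 8.28% of all genes were called. The Bbs12 difference fell short of 2-fold without S51 bortezomib replicate 4 (0.95) or S51A bortezomib replicate 1 (0.97). With library sizes alone it was 0.99 and not called, and that of Bbs1 was −1.04 and called. These comparisons share libraries with those of the response to bortezomib.

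**Figure D5:**
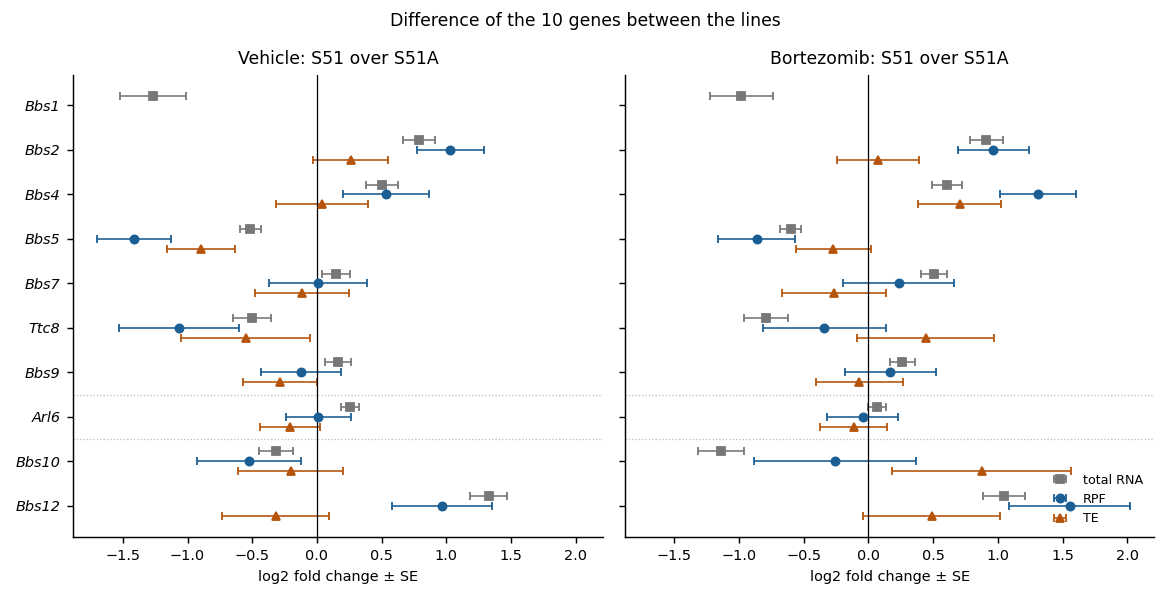
Log2 fold change with its SE (horizontal axis) of total RNA (squares), RPF (circles) and TE (triangles) for each gene in S51 over S51A cells, on vehicle (left) and on bortezomib (right). Bbs2 and Bbs12 lie above 0 in RPF and total RNA on both panels, Bbs5 below 0, and Bbs10 total RNA below 0, at −0.32 on vehicle and −1.14 on bortezomib.

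No member of 9 was called for TE by edgeR in any of the 5 comparisons. For S51 cells on bortezomib over vehicle 5.27% of all genes tested were called for TE. Among the members other than Bbs4 only Ttc8 had an unadjusted p below 0.05, as had 2171 of all 9457 genes. In this TE response the members other than Bbs4 ran from −0.38 ± 0.40 (Bbs7) to 1.31 ± 0.60 (Ttc8), with Bbs12 at 0.68 ± 0.42 and Bbs10 at 0.55 ± 0.64. Where TE is called by RPF and a 1.5-fold difference from total RNA, in 2 steps, Bbs5 was called between the lines on vehicle. The share of all genes called by this rule is not given here, and the TE shares that are given belong to the interaction. Bbs4 met this rule in S51 cells on bortezomib over vehicle and over S51A cells, as it did by DESeq2 in the first of these, which is a description, since Bbs4 was chosen on these contrasts. By the interaction, 0.983% of all genes were called for TE in S51A cells on bortezomib, 0.0846% between the lines on vehicle, 3.07% between them on bortezomib and 1.29% for the difference in response. The members other than Bbs4 at an unadjusted p below 0.05 in these were 0, 1 (Bbs5), 0 and 0, and DESeq2 called none. At that unadjusted p stood 618, 1390, 1737 and 1129 of all 9457 genes.

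Per length of coding sequence, Arl6 had the most RPFs in S51 cells on vehicle, at 15.8 ± 5.73 CPM per kb (SD, n = 3). It was followed by Bbs5 (5.41 ± 1.97), Bbs2 (4.62 ± 1.28), Bbs4 (3.81 ± 0.75) and Bbs12 (3.38 ± 2.19), whose neighbours in this order lay within 1 SD of each other, then by Bbs7 (2.29 ± 1.04), Bbs9 (1.99 ± 0.48), Bbs10 (1.68 ± 1.07) and Ttc8 (1.08 ± 0.73). On bortezomib in S51 cells Bbs4, at 8.89 ± 1.59 CPM per kb (SD, n = 4), stood second after Arl6 (16.3 ± 0.09) and above Bbs5 (6.21 ± 2.04) and Bbs2 (5.08 ± 0.79). In S51A cells on vehicle Bbs5, at 14.8 ± 2.67 CPM per kb, was close to Arl6 at 16.7 ± 4.58, and Bbs4 had 2.63 ± 0.67. In total RNA per kb of transcript Arl6 also led on vehicle in S51 cells, with 10.2 ± 0.81, and Bbs1 was last with 0.154 ± 0.08.

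Of the remaining partners of the complexes, 5 were tested for RPF in S51 cells on bortezomib and 1 was called, against the 18.6% of all genes. This was Rab3ip, the exchange factor for RAB8 that the BBSome binds, which fell by 0.68 ± 0.24 (adjusted p = 0.036) and by 0.74 ± 0.24 in TE (adjusted p = 0.039), where 5.27% of all genes were called. Bbip1, the smallest BBSome subunit, came nearest to Bbs4, with 0.61 ± 0.36 in RPFs (adjusted p = 0.21) and 0.84 ± 0.31 in TE (adjusted p = 0.082). Mkks, the other BBS chaperonin gene, had 0.23 ± 0.29 in RPFs (adjusted p = 0.58), while its mRNA fell by 0.17 ± 0.05 (adjusted p = 0.0045). Pcm1 and Dctn1, satellite and dynactin partners of BBS4, had 0.20 and 0.12 in RPFs and did not pass.

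All 8 TRiC subunits, which act with the BBS chaperonins, rose in total RNA in S51 cells on bortezomib, by 0.27 (Cct6a) to 0.55 (Cct7) on the log2 scale with a median of 0.46, where 29.7% of all genes rose at an adjusted p below 0.05. They rose in S51A cells as well, with a median of 0.31, where 27.5% of all genes rose, and passed 8 of 8 in both lines with RLE factors and with library sizes alone. None reached 2-fold. Bbs10, Bbs12 and Mkks mRNAs fell in both lines at the same threshold, where 30.2% of all genes fell in S51 and 28.9% in S51A cells. In RPFs 5 of 8 TRiC subunits rose in S51 cells (14.8% of all genes) and 2 of 8 in S51A cells (9.25% of all genes), none past 1.5-fold. Of 25 intraflagellar transport genes tested for RPF in S51 cells on bortezomib, none was called (18.6% of all genes), with a median of 0.14, and of 29 tested in total RNA Ttc30a1 was called and fell by 1.02 ± 0.17 (adjusted p = 1.8e-05), where 4.99% of all genes were called. None of 6 other Bardet-Biedl genes tested was called in RPFs in S51 cells on bortezomib (18.6% of all genes), which ranged from −0.29 (Trim32) to 0.59 (Cep290). In total RNA none of 8 was called in S51 cells (4.99% of all genes) and 1 of 8, Mks1, in S51A cells (4.18% of all genes), where it fell by 1.35 ± 0.38 (adjusted p = 0.0044).

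Among the genes whose RPFs followed Bbs4 most closely over the 15 libraries were Ythdf1 (Pearson r = 0.92), Idh3g (0.89), Pqlc3 (0.88) and Ppp1r8 (0.88), of 9457 genes. Of the members, Bbs2 (0.67) and Bbs12 (0.58) came nearest and Bbs5 (−0.52) was farthest. Over the 16 total RNA libraries the closest were Mrps22 (0.94), Ss18 (0.94), Zfp869 (0.93), Pdlim5 (0.93) and Fam118b (0.93), and among the members Bbs2 (0.79), Bbs7 (0.76), Bbs9 (0.66), Arl6 (0.64) and Bbs12 (0.54) had positive values, as against Ttc8 (−0.73), Bbs5 (−0.71), Bbs10 (−0.67) and Bbs1 (−0.51). These correlations share the line, the treatment and the depth of the libraries, and describe the pattern only.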

How the data were processed

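RPFs and total RNA were sequenced from 16 lysates. The authors deposited read counts per gene, whole numbers that were not normalized, in a separate table for each kind of library. By their methods, reads were aligned to mm10 with bowtie2, and RPF reads were counted within coding sequences with plastid, while the submitters' processing notes also name featureCounts. Versions were not given in the sources used here. No member shares an exon with another gene. Columns were tied to samples by their numbers, with S51 bortezomib and S51A vehicle assigned by the series note on exchanged titles. No 2 replicates were repeated libraries, since the lowest chi-square per gene was 1.66 in RPF and 2.78 in total RNA.

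Counts were fitted in R 4.3.3 with edgeR 4.0.16 (TMM, filterByExpr, quasi-likelihood test, 1 coefficient per group over all 15 or 16 libraries, Benjamini-Hochberg adjustment over all genes tested, which were 9457 for RPF and TE and 11708 for total RNA). Bbs1 failed the RPF filter. TE was tested over 31 libraries by the interaction between group and library kind. Calls needed a fold change above 1.5 (RPF, TE) or 2 (total RNA) with an adjusted p below 0.05. Fitted fold changes are log2 values ± SE, and intervals are 95% (1.96 SE). Correlations used log2 CPM with a prior count of 2. On simulated counts the RPF test of S51 bortezomib over vehicle, over 9457 genes, found 100% of 100 genes raised 3-fold and 84% of 100 lowered 3-fold. It made 10 false calls. The changed genes were drawn at random from those that passed both filters. The rates therefore do not give the power for members with few reads or for changes near 1.5-fold. The alternatives were RLE factors or library sizes alone, 2 other filters, DESeq2 1.42.0, only the groups compared, a replicate block, TE called in 2 steps and leaving out each library. The genes and lists were chosen with earlier results of these data known. Named genes are the members, the ends of each list and those called, the 5 most like Bbs4 (1 of those for RPF is not reported here), and the targeted gene.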

Additional observations from a re-analysis of the deposited data

Results flagged for a closer look

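Of 96 groups of 4 member values, 6 held a library far from its other 3, where chance flags about 1 in 20. In S51A cells on bortezomib the TE ratio of Bbs4 was 0.222 in replicate 2, against 0.853 to 0.884 in the others. The TE ratio of Bbs2 was 2.15 in replicate 3, against 0.909 to 0.985. Bbs10 RPFs were 4.64 CPM in replicate 4, against 1.04 to 1.61. The single RPF read of Bbs1 gave 0.520 CPM and a TE ratio of 0.265 in replicate 3, with 0 in the others. In S51A cells on vehicle, Bbs9 RPFs were 3.59 CPM in replicate 2, against 6.29 to 6.64.

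The response of Bbs10 mRNA to bortezomib differed between the lines by −0.82 on the log2 scale, with the larger fall in S51 cells (edgeR interaction, adjusted p = 0.0096). Bbs10 mRNA was lower on bortezomib than every vehicle library of its line in all 4 libraries of each line. In RPFs the difference in response was 0.27 ± 0.77 (adjusted p = 0.90), and −0.05 ± 0.63 (adjusted p = 0.98) without S51 vehicle replicate 2.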

How the results depend on the processing

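The members called were 1 and 1 in RPF for bortezomib in S51 and S51A cells, 2 and 4 between the lines on vehicle and on bortezomib, and 1, 0, 2 and 2 in total RNA. With at least 10 counts in every library only Arl6 could be tested for RPF, which gave 0 in all 4 comparisons, and total RNA on vehicle gave 1 (Bbs12), since Bbs1 was not tested. TE called in 2 steps gave 1 for S51 cells on bortezomib (Bbs4), 1 between the lines on vehicle (Bbs5) and 1 on bortezomib (Bbs4), where the interaction gave 0. The share of all genes called in 2 steps is not given here. Library sizes alone and DESeq2 each gave 1 for TE in S51 cells (Bbs4). Leaving out 1 library gave 1 to 2 (Bbs10 added without S51 vehicle replicate 2) and 0 to 1 in RPF for S51 and S51A cells, 2 to 3 on vehicle, 3 to 4 on bortezomib, 1 to 2 in total RNA on vehicle and 1 to 4 on bortezomib (1 without S51 bortezomib replicate 4, 4 without replicate 1). The cause of these moves was not tested. In total RNA between the lines on bortezomib, library sizes alone exchanged Bbs12 for Bbs1.

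The 45 gene results compared with the alternatives were those of Bbs4 and, of other members, only those at an adjusted p below 0.05. Results of other members near 0 were thus left out, and the count of sign changes does not cover them. One such result, Bbs9 RPFs on bortezomib in S51 cells, moved from −0.02 to 0.16 without S51 vehicle replicate 2. Of 1087 alternative values of the 45 results, 7 changed sign, all of Bbs4 differences near 0 and not called, when 1 library was left out. Bbs4 then reached −0.025 for the difference in total RNA response, −0.044 for TE in S51A cells and −0.17 for TE between the lines on vehicle (ranges −0.025 to 0.18, −0.044 to 0.44 and −0.17 to 0.26). Library sizes alone moved the median of all genes on bortezomib by −0.16 (S51) and −0.13 (S51A) in total RNA and by 0.15 in S51 TE, and the calls higher and lower from 230 and 354 to 161 and 578 in S51 total RNA, from 191 and 298 to 155 and 431 in S51A total RNA, and from 98 and 400 to 388 and 244 in S51 TE. Bbs4 mRNA on bortezomib over vehicle in S51 cells was then 0.23.

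The replicate numbers were not taken as pairs, since not every same-numbered pair correlated over 0.1 in its deviations from the group means. In RPF 3 of 21 pairs did (−0.17 to 0.27), against 7 of 63 with other numbers, and in total RNA 19 of 24 (0.02 to 0.32, median 0.14), against 3 of 72 with other numbers (median −0.04). The replicate block gave 1, 1, 2 and 4 members in RPF, 1, 0, 2 and 2 in total RNA and 0 in TE, as did a block by lysate for TE, and changed no call of a member. Depth limits the RPF results, with at most 84 reads of a member in a library.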
